A study of Mus musculus with 30 samples.

Results

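Collagens, laminins and integrins are the chains of the extracellular matrix and the receptors that cells use to hold on to it. The genes described here were the protein-coding genes of the GENCODE mouse M21 annotation whose symbols follow the naming patterns of these families (Col with a number and an a-chain number, Lama, Lamb and Lamc, Itga and Itgb with a number). These patterns selected 76 of the 55335 genes counted. They comprised 45 Col symbols, 11 laminin chains and 20 integrin subunits. The pattern for integrin alpha subunits asks for a number, so Itgav was not among them. One of the Col symbols, Col4a3bp, encodes the ceramide transfer protein and is no collagen, which left 44 collagens.

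The series used RiboTag to read RNA on ribosomes of medium spiny neurons in the nucleus accumbens, a forebrain region for reward and motivation, of female mice. D1-Cre-RT mice carry Cre under a dopamine receptor D1 driver and A2A-Cre-RT mice under an adenosine A2A receptor driver. In both lines Cre switches on an HA-tagged ribosomal protein, so all 6 groups carry the tag and the animals differ in which cells hold it. The A2A-Cre-RT libraries are called D2 libraries here, after the dopamine receptor D2 that those neurons express. Stressed females went through chronic witness defeat stress, in which an animal watches another being defeated, and were split by a social interaction test into Resilient and Susceptible groups. Control females form the remaining group of each line. Tissue was taken 24 h after that test, polyribosomes were pulled down with an anti-HA antibody, and libraries were made from 10 ng of RNA with the SMART-Seq v4 kit. Each of the 6 groups had 5 libraries, and each library pooled 4 mice with similar interaction ratios, so the spread below is between pools and not between single mice. The animals' age is not given in the sources used here.

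Collagen chains assemble in threes into triple helices, some of which form fibrils while others form sheets, sit in the cell membrane or decorate fibrils. Laminins join an alpha, a beta and a gamma chain into a cross-shaped molecule that, with type IV collagen, builds basement membranes, which in the brain surround blood vessels and the brain surface. Integrins pair an alpha with a beta subunit to bind these proteins from the cell side, and neurons use some of them at synapses.

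Gene counts per library ranged from 28996168 to 65882152. Levels are given as CPM, library-size scaled counts after TMM normalization, and 3 counts corresponded to 0.0430 to 0.304 CPM, depending on the library. The D1 markers Drd1, Pdyn and Tac1 were higher in D1 than in D2 libraries, and the D2 markers Drd2, Adora2a and Penk were lower, in all 3 states (edgeR adjusted p under 0.05 for all 6 genes). In Control the log2 differences D1 minus D2 were 2.07 for Drd1, -2.60 for Drd2 and -2.99 for Adora2a.

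Several libraries stood apart. D1 Susceptible library 1 had the fewest gene counts, and 53.3% of its read counts were assigned to no gene, against 10.1 to 15.7% in the other 29 libraries. D2 Susceptible libraries 1 and 2 had counts for 15822 and 16525 genes, against 19440 to 22375 in the other 28. The same 2 libraries had 267 and 56 counts of the Y-linked gene Ddx3y, which a female should lack, against at most 13 elsewhere, and 144 counts of the Y-linked gene Uty stood in library 1 alone. Their summed epidermal marker levels were 377 and 589 CPM, against 28.2 to 56.7 CPM in the other 28 libraries. In D2 Resilient library 5 the summed level of the D1 markers was 1640 CPM, against 237 to 1080 CPM in the other 14 D2 libraries. D1 Control library 1 had higher vascular and glial marker sums than the other 4 libraries of its group. Values without these libraries are given beside several of the results below.

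Of the 76 genes, 72 had enough counts to be tested. The 4 set aside were Col10a1, Col4a6, Col9a1 and Itga2, and Col4a6 had no count in any library. A count was present in every library for 40 genes, 35 genes averaged under 1 CPM, and 12 averaged 10 CPM or more. Of the 76 genes, 30 have a span, introns included, that overlaps the span of a gene on the opposite strand in the annotation. The strand setting of the authors' counting is not given in the sources used here. Reads in bases that exons of both genes share, if any, therefore cannot be told apart. How many exon bases are shared was not examined. Among the genes described below, spans overlap for Lamb3 (with G0s2 and Hsd11b1), Col9a3 (with Tcfl5), Col4a1 and Col4a2 (with each other, over 22 bases at their starts) and Col10a1 (with Nt5dc1). They also do for Itga1, Itga6, Itga9, Lama2, Lamc1, Lamc3, Col13a1, Col24a1, Col4a3bp, Col4a6, Col6a4 and Col6a6 (with predicted or non-coding genes).

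To compare genes with each other, the mean level over all 30 libraries was divided by exon length. On this per-kilobase scale Itgb1, the beta subunit shared by most matrix-binding integrins, stood at 8.53 CPM per kb, below only Col4a3bp at 10.2. The highest collagens were Col6a1 (7.62 CPM per kb), a chain of the beaded microfilaments of type VI collagen, and Col25a1 (5.57 CPM per kb), a transmembrane collagen made by neurons. Lamb1 led the laminins at 5.25 CPM per kb, followed by Lamc1 at 2.34 and Lamb3 at 1.53.

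Fibrillar collagens, the bulk of connective tissue, were low: the highest were Col11a2 at 0.508, Col1a2 at 0.300 and Col11a1 at 0.215 CPM per kb. The fibril-associated Col9a2 and Col9a3, chains of type IX collagen, reached 3.53 and 1.21 CPM per kb, and Col16a1 0.327. Among network collagens Col4a2 and Col4a1 stood at 1.96 and 1.01 CPM per kb, and the next, Col8a1, at 0.0904. Besides Col6a1, the other type VI chains Col6a2 and Col6a4 had 0.936 and 0.366 CPM per kb. The leading alpha subunits were Itga3 (1.72), Itga5 (1.70) and Itga9 (1.65 CPM per kb), receptors mainly for laminin, fibronectin and tenascin respectively. After Itgb1, the leading beta subunits were Itgb8 (1.34) and Itgb5 (1.32 CPM per kb), which both pair with the alpha v subunit.

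**Figure D1:**
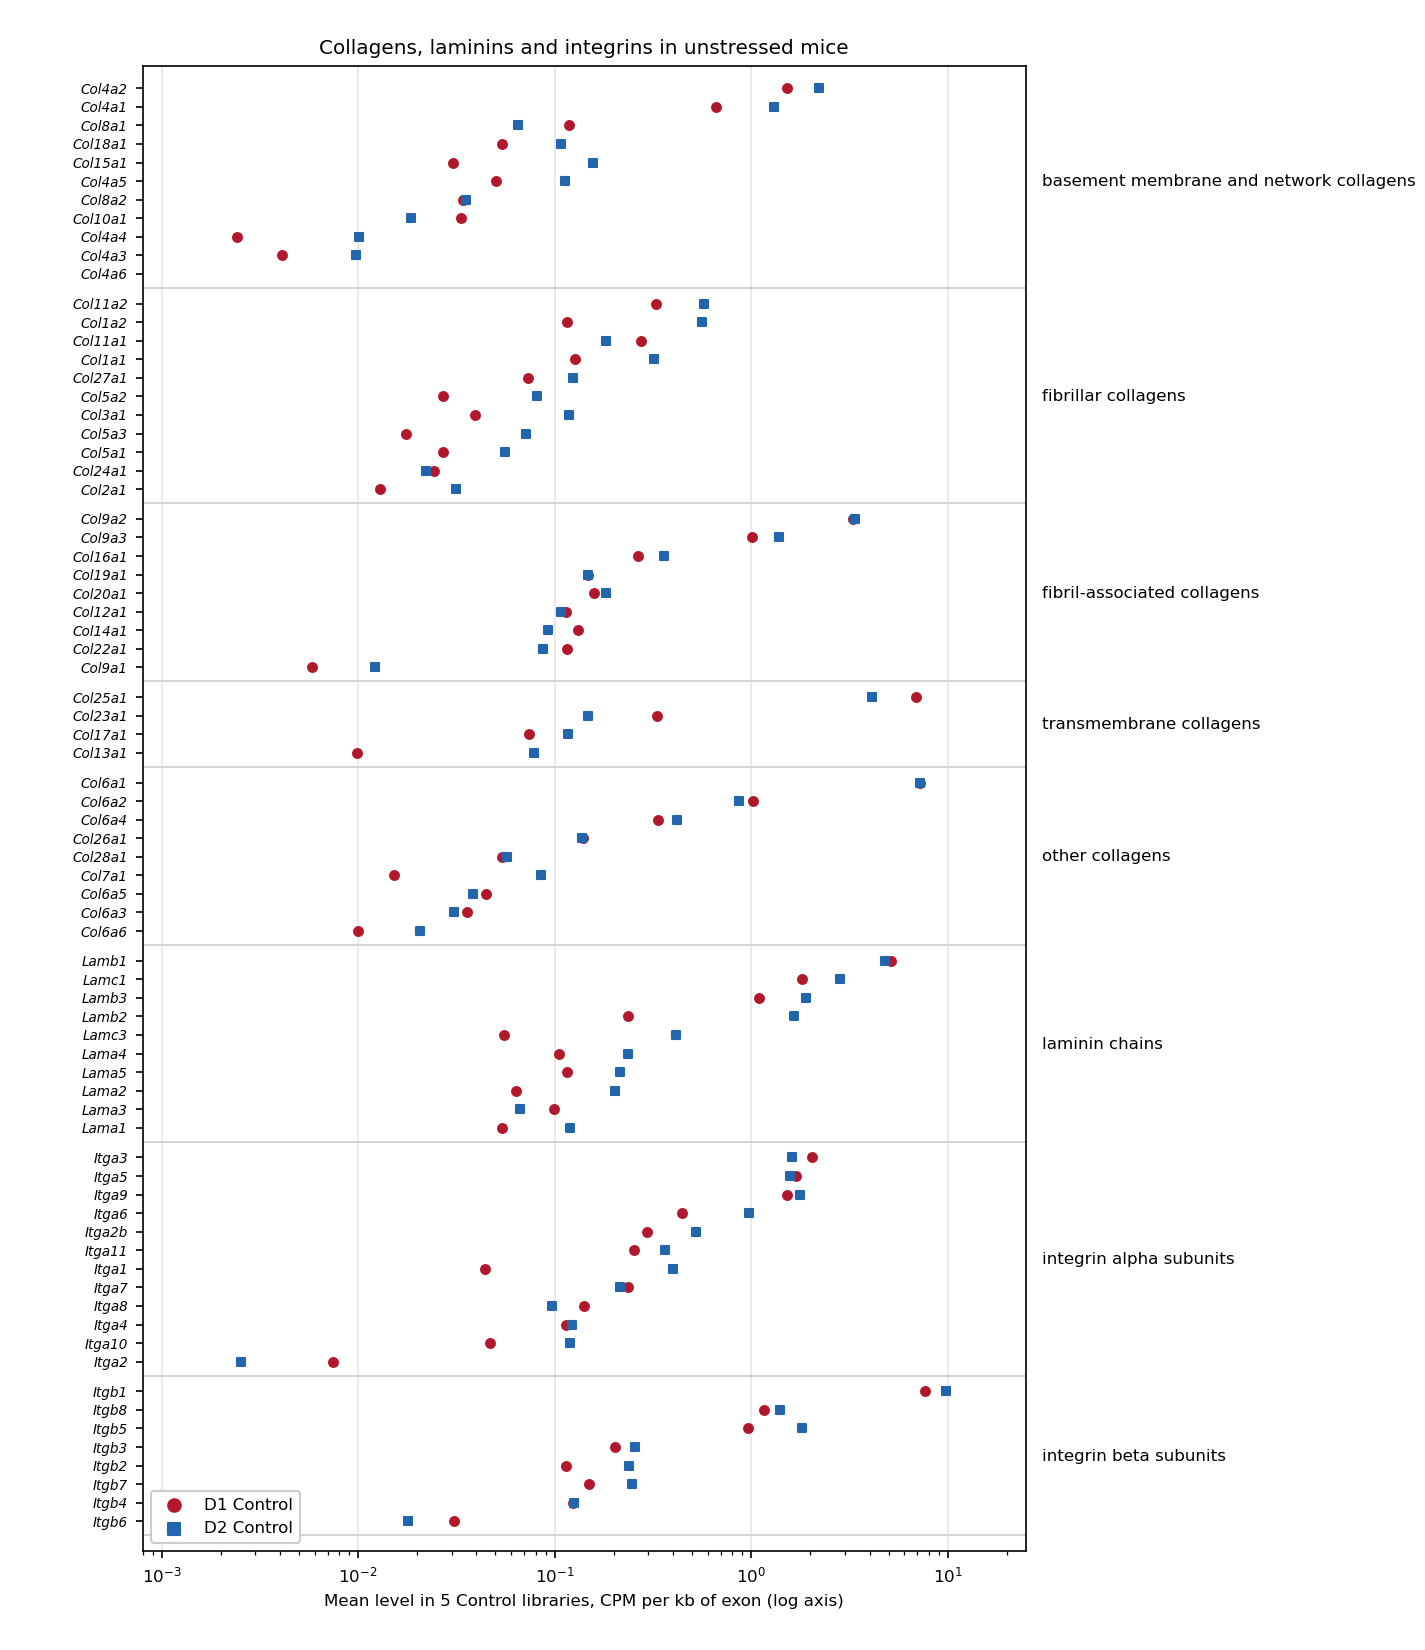
Mean level in the 5 D1 Control libraries (circles) and the 5 D2 Control libraries (squares), in CPM per kb of exon on a log axis, with the genes grouped by role. Itgb1, at 7.68 in D1 and 9.75 in D2, Col6a1, at 7.20 and 7.21, and Col25a1, at 6.92 and 4.12, lie at the right, and every fibrillar collagen lies below 1 CPM per kb.

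The first comparison asked how the classes of neurons differed within each state. In Control, 12 of 72 genes (16.7%) passed the test, edgeR's quasi-likelihood test with Benjamini-Hochberg adjustment over all 19368 genes tested, against 8.30% of all genes. Of these, 10 were lower in D1 (13.9% against 4.80% of all genes) and 2 were higher, Col25a1 among them (2.78% against 3.51%). In Resilient, 13 genes passed (18.1% against 6.65%), 12 lower in D1 (16.7% against 3.90%) and 1 higher (1.39% against 2.75%). In Susceptible, 16 genes passed (22.2%), close to the 23.9% of all genes, with 13 lower in D1 (18.1% against 13.4%) and 3 higher (4.17% against 10.5%).

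The median log2 difference D1 minus D2 of the 72 genes was -0.49 in Control, -0.28 in Resilient and -0.23 in Susceptible, while the median of all genes tested lay within 0.0167 of 0. The sign was negative for 51, 48 and 45 of the 72 genes. The 5 D1 and 5 D2 libraries did not overlap for 20 genes in Control (11.7% of all genes; 27.8% of these), for 12 in Resilient (9.70% of all; 16.7% of these) and for 8 in Susceptible (8.92% of all; 11.1% of these). D1 was the lower group for 16, 11 and 6 of them. In all, 22 genes were called in at least 1 state, 18 of them lower and 4 higher in D1, and 50 in none. Those called in all 3 states were type I and IV collagen chains (Col1a2, Col4a1), a transmembrane collagen (Col25a1), a laminin chain (Lamb2) and integrin alpha subunits (Itga1, Itga6). The Control, Resilient and Susceptible comparisons use separate libraries, but all of them are fitted in 1 model that shares its estimate of spread.

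**Figure D2:**
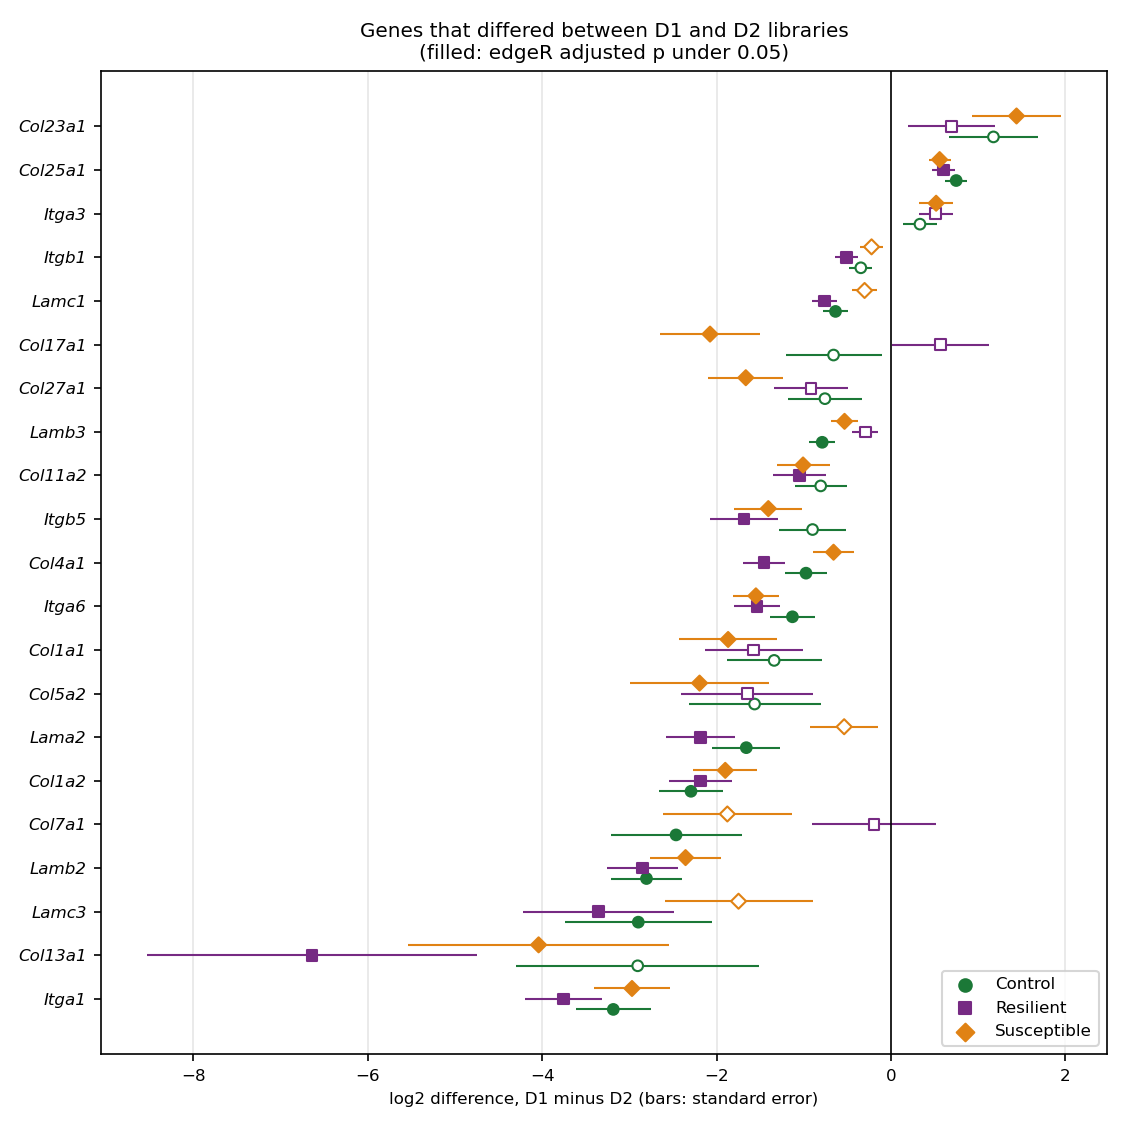
Log2 difference D1 minus D2 (points) with its standard error (bars) for genes called in at least 1 state, with a colour and shape for each state, filled where edgeR's adjusted p was under 0.05 and open where it was not. Itga1, Lamb2 and Col1a2 lie below -1.8 in all 3 states, and Col25a1 lies above 0.5 in all of them.

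Beside these counts, markers of blood vessels differed between the classes in the same direction. All 14 endothelial markers were lower in D1 than in D2 in each state, and 8 of 11 mural cell markers were. The summed endothelial level had a lowest, median and highest value of 36.5, 38.6 and 67.9 CPM in D1 Control against 260.5, 366 and 425 CPM in D2 Control. Corresponding sums in Resilient were 33.8, 36.7 and 40.3 CPM in D1 against 122, 323 and 354 CPM in D2. In Susceptible they were 37.1, 57.8 and 78.3 CPM in D1 against 306, 360.0 and 444 CPM in D2. The D1 and D2 ranges did not overlap in any state.

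Mural sums, over pericytes and smooth muscle, were 18.2, 21.7 and 40.2 CPM in D1 Control against 172, 234 and 287 CPM in D2 Control. Fibroblast and meningeal markers summed to 9.03, 11.4 and 16.8 CPM in D1 Control against 22.4, 40.5 and 42.0 CPM in D2 Control, with 5, 4 and 5 of 9 markers lower in D1 in Control, Resilient and Susceptible. The defining endothelial gene Cldn5 ranged from 3.45 to 10.5 CPM in D1 Control against 35.1 to 102 CPM in D2 Control. No endothelial marker was at 0 in all libraries of a group. The part of these cells in the class differences below was not tested. In pulled-down RNA, fewer cells of a type cannot be told apart from less RNA per cell or from less of it entering the pulldown.

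Other cell types differed less uniformly. Of all genes tested, 4.80%, 3.90% and 13.4% were called lower in D1 in Control, Resilient and Susceptible, and 3.51%, 2.75% and 10.5% higher. Astrocyte markers were lower in D1 for 5, 6 and 6 of 8 genes in Control, Resilient and Susceptible, oligodendrocyte markers for 0, 3 and 5 of 8, and microglia markers for 0, 4 and 1 of 9. Interneuron markers were higher in D1 for 4, 5 and 6 of 8 genes and lower for 1, 0 and 1. Of the 6 ependymal and choroid plexus markers tested, 1, 2 and 1 were lower in D1. Of the 5 epidermal markers tested, 0, 0 and 3 were lower in D1.

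**Figure D3:**
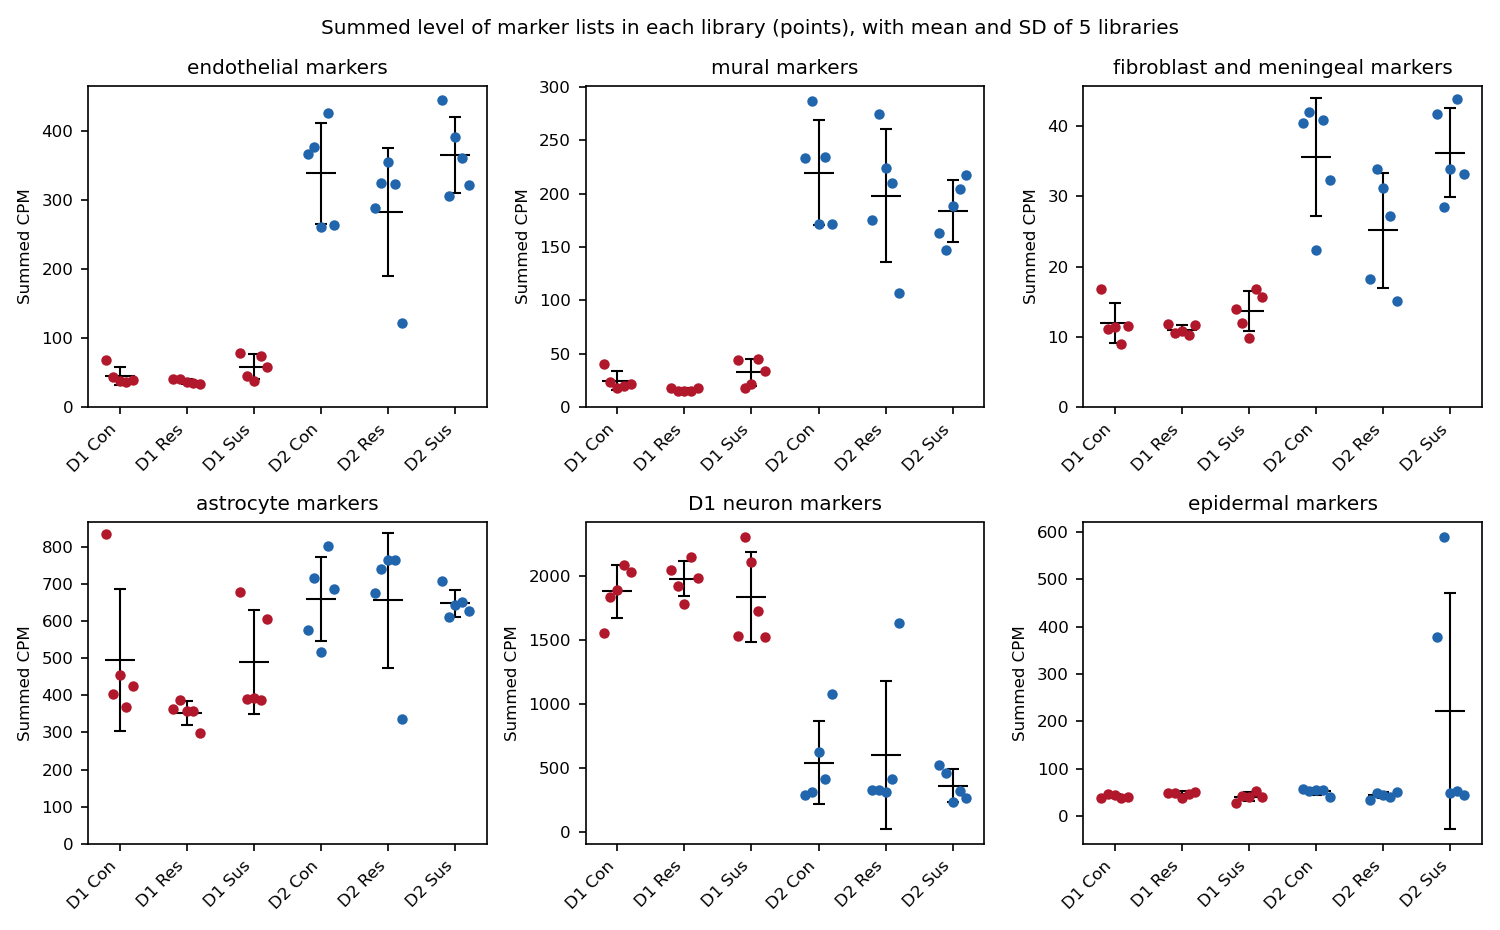
Summed CPM of 6 marker lists in each library (points, library 1 to 5 from left to right within a group), with the mean and SD of 5 libraries, on linear axes. Endothelial sums lie between 33.8 and 78.3 CPM in the D1 libraries and between 122 and 444 CPM in the D2 libraries, and epidermal sums are high in D2 Susceptible libraries 1 and 2.

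Of the 11 laminin chains, 5 were called lower in D1 in Control, against 4.80% of all genes, and the median log2 difference was -0.88. For 7 of the 11, every D1 Control library lay below every D2 Control library. Groups did not overlap, in either direction, for 11.7% of all genes. In Resilient 4 of 11 were called and in Susceptible 2, all lower in D1, against 3.90% and 13.4% of all genes. The laminin medians there were -0.77 and -0.31.

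Lamb2, the beta chain of laminins at vascular and synaptic basement membranes, lies on chromosome 9 at 108479736 to 108490530 (GRCm38, plus strand). Its levels in D1 Control libraries 1 to 5 were 3.16, 1.70, 0.678, 0.721 and 0.874 CPM, and in D2 Control 11.8, 13.2, 7.27, 11.3 and 6.65 CPM. Every D2 library lay above every D1 library. The log2 difference D1 minus D2 was -2.80 (SE 0.405, edgeR adjusted p = 1.99e-05), a level 6.98-fold higher in D2. In Resilient it was 0.562, 1.70, 1.45, 1.40 and 0.960 CPM in the D1 libraries against 6.52, 10.3, 12.8, 9.503 and 4.60 CPM in the D2 libraries, 7.19-fold higher in D2 (edgeR adjusted p = 1.49e-05). In Susceptible it was 3.04, 0.874, 1.29, 2.45 and 1.34 CPM in the D1 libraries against 9.30, 4.35, 11.4, 8.87 and 10.2 CPM in the D2 libraries, 5.12-fold higher (edgeR adjusted p = 0.000121). Groups again did not overlap in either state.

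Lamb1, the most abundant laminin chain per kb, did not pass in any state and had 46.9, 51.3, 50.5, 52.6 and 53.2 CPM in D1 Control against 50.2, 48.0, 51.8, 40.3 and 47.4 CPM in D2 Control. Its log2 difference was 0.10 (SE 0.105, edgeR adjusted p = 0.707), and the groups overlapped. Lamb3, the beta chain of laminin-332, which anchors epithelia, had 7.87, 7.02, 7.22, 7.91 and 6.21 CPM in D1 Control against 11.8, 14.1, 14.1, 12.7 and 9.99 CPM in D2 Control, with no overlap. That is 1.73-fold higher in D2 (log2 -0.79, SE 0.149, edgeR adjusted p = 0.000629). Its difference did not pass in Resilient (log2 -0.29, edgeR adjusted p = 0.359), and in Susceptible it was -0.53 (edgeR adjusted p = 0.0102), a call lost without D1 Susceptible library 3 (log2 -0.41, edgeR adjusted p = 0.0548).

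As shares of the 3 beta chains, per kb, Lamb1 made up 79.4% in D1 Control (73.4 to 83.2% over 5 libraries) and 57.6% in D2 Control (51.9 to 64.7%). Lamb2 made up 3.63% (1.77 to 8.08%) in D1 Control and 19.7% (14.0 to 23.8%) in D2 Control. The composition of the beta chains thus did not overlap between the classes for either of these chains. These shares restate the levels above and were given no test of their own.

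Lamc1, the gamma chain of most laminins, had 15.7, 15.7, 12.8, 14.2 and 16.7 CPM in D1 Control against 25.0, 27.3, 19.6, 24.7 and 20.1 CPM in D2 Control, with every D1 library below every D2 library. This was 1.55-fold higher in D2 (log2 -0.64, SE 0.143, edgeR adjusted p = 0.00361).

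In Resilient, Lamc1 was again lower in D1 (14.2, 14.5, 13.7, 13.2 and 12.7 CPM) than in D2 (20.4, 26.5, 23.3, 25.0 and 20.95 CPM), without overlap (log2 -0.77, edgeR adjusted p = 0.000453). In Susceptible its difference was -0.30 (edgeR adjusted p = 0.122).

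Lamc3, a less widespread gamma chain, had 0.567, 0.307, 0.283, 0.111 and 0.413 CPM in D1 Control against 3.15, 3.67, 1.47, 2.34 and 1.96 CPM in D2 Control, 7.45-fold higher in D2 without overlap (edgeR adjusted p = 0.0271). That call was lost without any one of D1 Control libraries 2 to 5 or D2 Control libraries 1 and 2, with log2 differences of -2.96 to -2.66 and edgeR adjusted p of 0.0545 to 0.0862. In Resilient it was 10.2-fold higher in D2 (edgeR adjusted p = 0.0125), also without overlap. In Susceptible, where D1 library 1 had 1.93 CPM and D2 library 2 had 0, it did not pass (log2 -1.75, edgeR adjusted p = 0.133).

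Lama2, the alpha chain of muscle, vessel and nerve laminins, had 1.32, 1.33, 1.02, 1.03 and 0.510 CPM in D1 Control against 2.74, 4.09, 2.20, 2.81 and 4.69 CPM in D2 Control. The groups did not overlap, and the level was 3.16-fold higher in D2 (log2 -1.66, SE 0.390, edgeR adjusted p = 0.00554). In Resilient it had 0.956, 0.909, 0.806, 0.871 and 0.369 CPM in the D1 libraries against 4.31, 4.13, 4.04, 3.57 and 1.77 CPM in the D2 libraries, 4.55-fold higher in D2 (edgeR adjusted p = 0.000336), again without overlap. In Susceptible the values were 2.44, 1.01, 0.787, 0.969 and 0.880 CPM in the D1 libraries against 0.752, 0.797, 2.26, 2.21 and 2.41 CPM in the D2 libraries. These overlapped: D2 libraries 1 and 2 lay below most D1 libraries, and D1 library 1 above all D2 libraries (log2 -0.54, edgeR adjusted p = 0.336). With D2 Susceptible libraries 1 and 2 left out, Lama2 in Susceptible was 1.99-fold higher in D2 and did not pass (edgeR adjusted p = 0.0689). With D1 Susceptible library 1 and D2 Resilient library 5 left out as well, it passed at 2.50-fold higher in D2 (log2 -1.32, edgeR adjusted p = 0.00407). It also passed with all libraries under voom with quality weights (log2 -1.26, adjusted p = 0.00664).

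Among integrin alpha subunits, 2 of 11 were called in Control (8.30% of all genes), 2 in Resilient (6.65%) and 3 in Susceptible (23.9%). Itga1, which with Itgb1 forms a receptor for collagen and laminin, had the largest absolute log2 difference of the genes called in Control. It lies on chromosome 13 at 114953096 to 115101964 (GRCm38, minus strand). The 250 bases before its annotated start, chr13:115101965-115102214 (RefSeq, GRCm38.p6, minus strand), are shown because this gene had the largest called difference in Control. In all promoter sequences here, capitals mark 3 motifs searched on both strands: the GC box (its letters are GGGCGG), the CCAAT box and the TATA box (searched as TATAAA). The letters of these motifs do not overlap in any window shown. This window holds none of them, which says only that these letters are not in it.
Itga1: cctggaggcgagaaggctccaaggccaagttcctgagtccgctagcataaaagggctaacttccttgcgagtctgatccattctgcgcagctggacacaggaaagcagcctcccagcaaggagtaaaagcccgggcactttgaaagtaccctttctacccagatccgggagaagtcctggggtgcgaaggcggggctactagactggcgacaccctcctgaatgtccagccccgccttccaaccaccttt

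Itga1 levels were 0.881, 0.698, 0.942, 0.480 and 1.09 CPM in D1 Control against 7.86, 7.75, 6.09, 10.3 and 5.22 CPM in D2 Control. No D1 library came near the lowest D2 library, and the level was 9.09-fold higher in D2 (log2 -3.18, SE 0.428, edgeR adjusted p = 6.67e-06). In Resilient the values were 0.356, 0.387, 0.600, 0.526 and 0.776 CPM in the D1 libraries against 7.70, 7.66, 9.40, 8.18 and 2.96 CPM in the D2 libraries, 13.5-fold higher in D2 (edgeR adjusted p = 6.72e-07). In Susceptible they were 4.16, 0.570, 0.537, 0.887 and 0.495 CPM in the D1 libraries against 10.97, 9.54, 8.49, 6.45 and 9 CPM in the D2 libraries, 7.84-fold higher (edgeR adjusted p = 1.58e-05). The groups overlapped in no state, although D1 Susceptible library 1 and D2 Resilient library 5 lay far from the rest of their groups, towards the other class. Without D1 Susceptible library 1, the difference in Susceptible was 14.3-fold (log2 -3.84, edgeR adjusted p = 2.26e-08).

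Itga6, a laminin receptor subunit that pairs with Itgb1 or Itgb4, had 5.34, 3.34, 5.63, 2.66 and 3.18 CPM in D1 Control against 8.22, 8.60, 7.16, 10.7 and 9.48 CPM in D2 Control, without overlap. This was 2.19-fold higher in D2 (log2 -1.13, SE 0.262, edgeR adjusted p = 0.00486). In Resilient the fold was 2.90 (edgeR adjusted p = 0.000176), with overlap through D2 library 5 at 3.76 CPM, and in Susceptible 2.93 (edgeR adjusted p = 0.000121), without overlap.

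Itga3, another laminin receptor subunit, went the other way. In Susceptible it had 10.2, 10.0, 9.77, 12.6 and 12.8 CPM in the D1 libraries against 9.53, 3.91, 9.09, 8.13 and 8.07 CPM in the D2 libraries, with every D1 library above every D2 library (log2 0.52, SE 0.193, edgeR adjusted p = 0.0494). The call was lost without any one of D1 Susceptible libraries 1, 4 and 5 or D2 Susceptible libraries 2 and 4 (log2 0.37 to 0.56, edgeR adjusted p 0.0528 to 0.127). In Control its log2 difference was 0.33 (edgeR adjusted p = 0.363) and in Resilient 0.51 (edgeR adjusted p = 0.128). Itga5 and Itga9 did not pass in any state. In Control Itga5 averaged 8.30 ± 1.64 CPM in D1 against 7.79 ± 1.40 CPM in the D2 libraries (SD, n = 5), and Itga9 11.7 ± 2.14 and 13.7 ± 2.45 CPM.

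No integrin beta subunit passed in Control. Itgb1 had 30.9, 27.4, 30.9, 33.7 and 33.6 CPM in D1 Control against 37.2, 48.6, 32.6, 42.3 and 38.3 CPM in D2 Control, overlapping only through D2 library 3 (log2 -0.35, edgeR adjusted p = 0.110). In Resilient it had 32.6, 31.4, 32.2, 26.1 and 27.7 CPM in the D1 libraries against 50.7, 48.2, 46.4, 32.0 and 36.1 CPM in the D2 libraries, 1.42-fold higher in D2 (log2 -0.51, SE 0.132, edgeR adjusted p = 0.0125). Without any one of D1 Resilient library 4 and D2 Resilient libraries 1 and 2, that call was lost (log2 -0.45 to -0.44, edgeR adjusted p 0.0544 to 0.0620). In Susceptible it did not pass (log2 -0.22, edgeR adjusted p = 0.230).

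Itgb5, the beta subunit of a vitronectin receptor, is shown with the 250 bases before its start, chr16:33829415-33829664 (RefSeq, GRCm38.p6, plus strand), because it was the beta subunit called in the most states. The window holds 3 GC boxes.
Itgb5: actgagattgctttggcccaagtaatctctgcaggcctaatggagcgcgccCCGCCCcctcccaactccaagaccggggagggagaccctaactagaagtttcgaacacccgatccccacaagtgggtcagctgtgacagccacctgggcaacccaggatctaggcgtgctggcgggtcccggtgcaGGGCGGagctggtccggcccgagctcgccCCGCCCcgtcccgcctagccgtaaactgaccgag

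Itgb5 levels in Control were 8.59, 3.44, 2.11, 1.81 and 1.24 CPM in the D1 libraries against 6.97, 7.62, 4.33, 7.27 and 5.99 CPM in the D2 libraries. The groups overlapped through D1 library 1, the highest of all 10, and the difference did not pass (log2 -0.90, edgeR adjusted p = 0.167), although it did when that library was left out. In Resilient it had 0.956, 1.76, 1.65, 2.89 and 1.96 CPM in the D1 libraries against 4.15, 8.04, 6.74, 7.97 and 2.75 CPM in the D2 libraries, 3.22-fold higher in D2 (edgeR adjusted p = 0.00495), overlapping only through D2 library 5. In Susceptible, 3.96, 1.60, 2.54, 4.49 and 2.00 CPM in the D1 libraries against 6.46, 7.95, 8.00, 8.74 and 6.99 CPM in the D2 libraries did not overlap, 2.65-fold higher in D2 (edgeR adjusted p = 0.00964). Itgb8, which activates latent TGF-beta together with alpha v, averaged 10.7 ± 2.60 CPM in D1 Resilient and 18.9 ± 7.48 CPM in D2 Resilient (SD, n = 5), just outside the threshold (log2 -0.82, edgeR adjusted p = 0.0507).

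**Figure D4:**
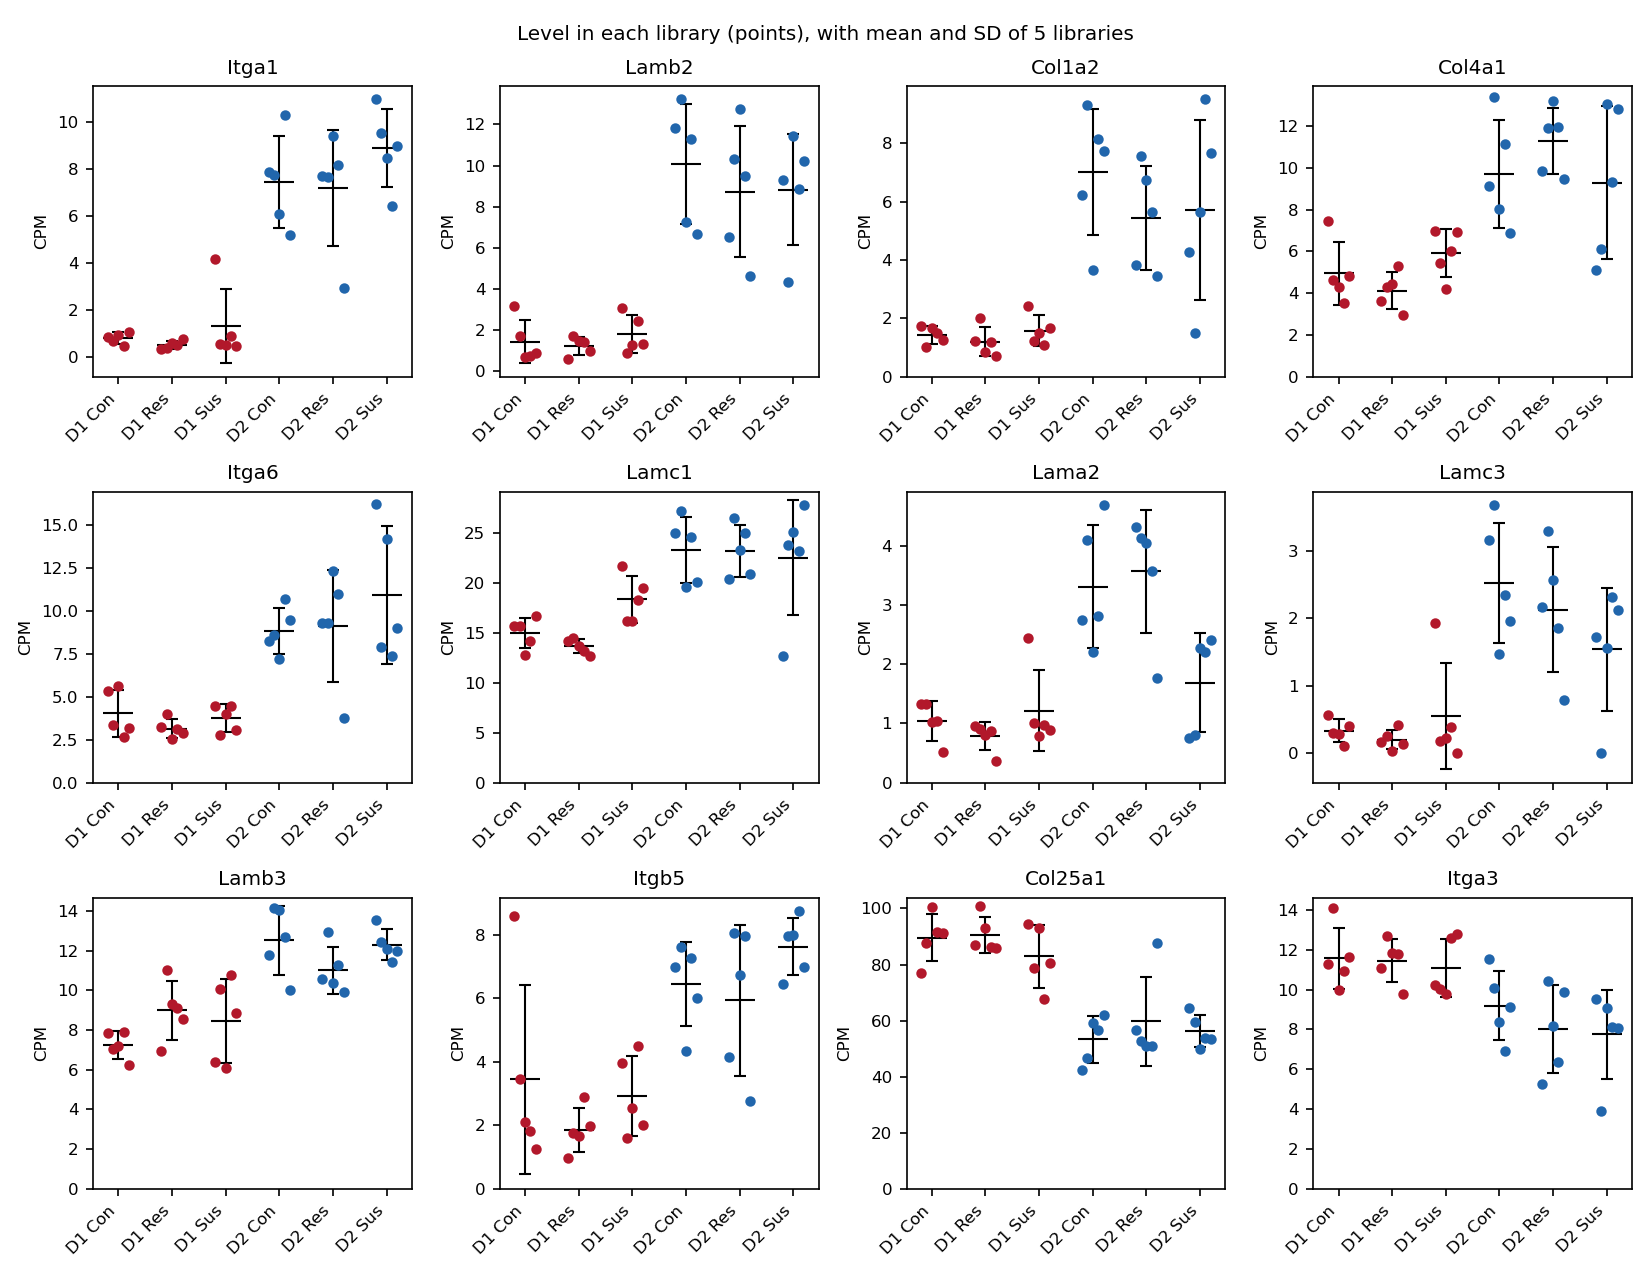
CPM of 12 genes in each of the 30 libraries (points, library 1 to 5 from left to right within a group), with the mean and SD of 5 libraries, on linear axes. Itga1 and Lamb2 do not overlap between D1 and D2 in any state, and D2 Resilient library 5 stands at the D1 level of Col25a1 with 87.7 CPM.

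Of the 9 network collagens tested, 8 had a negative log2 difference in Control (median -0.99) and 1 was called (8.30% of all genes). Col4a1 and Col4a2, the chains of the main type IV collagen of basement membranes, start head to head on chromosome 8. Their annotated first bases bound a stretch of 22 bases, and this stretch, chr8:11312805-11312826 (GRCm38.p6, plus strand), is shown because both genes begin within it. It holds 1 GC box, in capitals.
Col4a1 and Col4a2: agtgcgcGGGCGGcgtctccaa

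Col4a1 had 7.46, 4.65, 4.28, 3.53 and 4.81 CPM in D1 Control against 9.13, 13.4, 8.05, 11.1 and 6.88 CPM in D2 Control. Only D1 library 1 reached into the D2 range, and the level was 1.96-fold higher in D2 (log2 -0.97, SE 0.239, edgeR adjusted p = 0.00814). In Resilient it had 3.62, 4.27, 4.42, 5.32 and 2.94 CPM in the D1 libraries against 9.86, 11.9, 13.2, 11.99 and 9.49 CPM in the D2 libraries, 2.74-fold higher without overlap (edgeR adjusted p = 0.000111). In Susceptible the groups overlapped and the fold was 1.58 (edgeR adjusted p = 0.0441). That last call was lost without any one of D1 Susceptible libraries 2 to 5 or D2 Susceptible libraries 3 to 5 (log2 -0.71 to -0.48, edgeR adjusted p 0.0539 to 0.137).

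Col4a2 had 11.8, 10.0, 10.2, 10.1 and 8.28 CPM in D1 Control against 16.2, 18.5, 13.5, 13.4 and 11.5 CPM in D2 Control, and did not pass (log2 -0.54, edgeR adjusted p = 0.103). In Resilient its groups did not overlap, but it did not pass there either (log2 -0.62, SE 0.202, edgeR adjusted p = 0.0633). Whether the differences of Col4a1 and Col4a2 differ from each other was not tested. Col8a1, a short-chain collagen of vessel walls and the cornea, averaged 0.922 ± 0.369 CPM in D1 Control against 0.507 ± 0.285 CPM in D2 Control and passed in no state.

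Fibrillar collagens had the lowest median log2 difference of the collagen groups in Control, -1.27, with 1 of 11 genes called (8.30% of all genes). In Resilient 2 and in Susceptible 5 of 11 were called, all lower in D1, with medians of -0.92 and -1.39. Of all genes, 3.90% and 13.4% were called lower in these 2 states. Col1a2, the second chain of type I collagen (chromosome 6, 4504814 to 4541544, plus strand), had 1.75, 1.02, 1.66, 1.48 and 1.24 CPM in D1 Control against 6.22, 9.30, 3.67, 8.15 and 7.74 CPM in D2 Control. The groups did not overlap, and the level was 4.90-fold higher in D2 (log2 -2.29, SE 0.366, edgeR adjusted p = 7.85e-05). In Resilient it was 4.55-fold higher in D2 (edgeR adjusted p = 0.000123), without overlap. In Susceptible it was 3.73-fold higher (edgeR adjusted p = 0.000460), with overlap through D2 library 2 at 1.50 CPM.

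Col1a1, the first chain of type I collagen, passed in Susceptible, where D1 had 1.22, 0.380, 0.394, 1.22 and 0.495 CPM and D2 2.51, 3.71, 3.14, 2.31 and 1.43 CPM without overlap (log2 -1.87, SE 0.563, edgeR adjusted p = 0.0161). It did not pass without D1 Susceptible library 2 (log2 -1.67, edgeR adjusted p = 0.0505). Its log2 difference was -1.34 in Control (edgeR adjusted p = 0.142) and -1.57 in Resilient (edgeR adjusted p = 0.101).

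Col11a2, a chain of type XI collagen, had 2.70, 2.55, 1.86, 2.18 and 2.23 CPM in D1 Resilient against 4.31, 3.96, 6.72, 6.02 and 2.90 CPM in D2 Resilient, without overlap (log2 -1.05, edgeR adjusted p = 0.0275). Without any one of D1 Resilient libraries 2 to 5 or D2 Resilient libraries 3 and 4, this call was lost (log2 -1.07 to -0.88, edgeR adjusted p 0.0527 to 0.114). In Susceptible it was 2.01-fold higher in D2 (edgeR adjusted p = 0.0161), but not without D2 Susceptible library 3 (log2 -0.77, edgeR adjusted p = 0.0551). In Control its groups did not overlap, yet it did not pass (log2 -0.81, edgeR adjusted p = 0.09999). Its partner chain Col11a1 had the opposite sign in Control and did not pass (log2 0.60, edgeR adjusted p = 0.180).

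Col5a2, which helps set the width of type I fibrils, had 1.42, 0.304, 0.143, 0.144 and 0.0734 CPM in D1 Susceptible against 2.17, 3.44, 0.825, 1.41 and 0.382 CPM in D2 Susceptible, with D2 libraries 1 and 2 the highest (log2 -2.20, SE 0.794, edgeR adjusted p = 0.0427). Its call was lost in 7 of the fits that left out 1 library, those without D1 Susceptible libraries 2 to 5 or D2 Susceptible libraries 1, 2 and 4 (log2 -2.23 to -1.74, edgeR adjusted p 0.0508 to 0.127). Without D1 Susceptible library 1 it passed with a larger difference (log2 -3.29, edgeR adjusted p = 0.00454). Col27a1, a fibrillar collagen of cartilage, had 0.609, 0.760, 0.698, 1.34 and 1.43 CPM in D1 Susceptible against 4.98, 4.22, 1.56, 3.45 and 1.40 CPM in D2 Susceptible (log2 -1.66, SE 0.430, edgeR adjusted p = 0.00583). With D2 Susceptible libraries 1 and 2 left out together, it no longer passed (log2 -1.08, edgeR adjusted p = 0.105).

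The 4 transmembrane collagens were the only collagen group with called genes in both directions. Col25a1, the precursor of a fragment that binds amyloid beta, lies on chromosome 3 at 130131501 to 130599877 (GRCm38, plus strand). The 250 bases before the RefSeq start, chr3:130180595-130180844 (RefSeq, GRCm38.p6, plus strand), lie within the span of the annotated gene and in none of its annotated exons. They are shown because this collagen was called higher in D1 in all 3 states, and they hold 2 GC boxes and 1 CCAAT.
Col25a1: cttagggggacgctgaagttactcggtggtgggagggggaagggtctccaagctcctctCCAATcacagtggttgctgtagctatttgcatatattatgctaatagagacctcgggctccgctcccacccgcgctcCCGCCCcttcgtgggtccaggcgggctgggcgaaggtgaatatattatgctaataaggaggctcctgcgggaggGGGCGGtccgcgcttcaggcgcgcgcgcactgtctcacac

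Col25a1 levels were 77.1, 87.6, 100.5, 91.7 and 91.3 CPM in D1 Control against 42.4, 46.7, 59.0, 56.6 and 62.0 CPM in D2 Control. Every D1 library lay above every D2 library, 1.68-fold higher (log2 0.75, SE 0.127, edgeR adjusted p = 0.000169). In Resilient the values were 87.1, 101, 93.2, 86.4 and 85.9 CPM in the D1 libraries against 56.6, 52.6, 50.9, 51.0 and 87.7 CPM in the D2 libraries, 1.52-fold higher in D1 (edgeR adjusted p = 0.00179). The overlap there came from D2 library 5, the library with the high D1 marker sum. In Susceptible they were 94.6, 78.8, 92.9, 67.6 and 80.5 CPM in the D1 libraries against 64.4, 59.5, 49.9, 53.9 and 53.3 CPM in the D2 libraries, 1.47-fold higher in D1 without overlap (edgeR adjusted p = 0.00222).

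Col23a1 had 1.83, 1.61, 2.47, 2.12 and 4.33 CPM in D1 Susceptible against 0, 1.81, 0.649, 1.01 and 1.09 CPM in D2 Susceptible, 2.71-fold higher in D1 (edgeR adjusted p = 0.0396). Without any one of D1 Susceptible libraries 3 and 5 or D2 Susceptible libraries 3 and 4, its call was lost (log2 1.16 to 1.50, edgeR adjusted p 0.0507 to 0.124). In Control every D1 library (1.58 to 2.27 CPM) lay above every D2 library (0.545 to 1.30 CPM), but the difference did not pass (log2 1.18, edgeR adjusted p = 0.177).

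Col13a1, known from the neuromuscular junction, was near the detection limit. It had no count in any D1 Resilient library and 62 counts over the D2 Resilient libraries, at least 18.8-fold lower in D1 when 3 counts over the group are taken as the floor (edgeR adjusted p = 0.0291). The call was lost without any 1 of the D1 Resilient libraries or without D2 Resilient library 2 (edgeR adjusted p 0.0591 to 0.0657). In Susceptible, D2 library 4 alone had 2.24 CPM, and the call there (log2 -4.04, edgeR adjusted p = 0.04996) was lost without that library or without D1 Susceptible libraries 1, 2, 4 or 5 (log2 -3.93 to -2.24, edgeR adjusted p 0.0859 to 0.270). All 8 counts of the D1 Susceptible group lay in library 3. Without it that group was at 0 and the call held (edgeR adjusted p = 0.0152), but the fitted difference (log2 -7.97) depends on the prior count and is no measure of size.

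Col17a1, the collagen of hemidesmosomes that holds epidermal cells to their basement membrane, was called in Susceptible, with 0.507, 0.513, 0.268, 0.474 and 0.385 CPM in the D1 libraries against 4.21, 2.14, 0.456, 1.53 and 0.676 CPM in the D2 libraries (log2 -2.07, SE 0.573, edgeR adjusted p = 0.00919). The highest D2 values were those of libraries 1 and 2, which carried the high epidermal marker sums. Without D2 Susceptible library 1 it did not pass (log2 -1.47, edgeR adjusted p = 0.0591), nor without both libraries (log2 -1.04, edgeR adjusted p = 0.265).

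Of the remaining collagens, Col7a1, which forms the anchoring fibrils of skin, was called in Control with 0, 0.102, 0.415, 0.148 and 0.121 CPM in the D1 libraries against 1.10, 1.29, 0.545, 0.914 and 0.530 CPM in the D2 libraries, without overlap (log2 -2.46, SE 0.751, edgeR adjusted p = 0.0361). This call was lost without any one of D1 Control libraries 1, 2, 4 and 5 or D2 Control libraries 1, 2 and 4 (log2 -2.44 to -2.13, edgeR adjusted p 0.0574 to 0.0936), and the Col7a1 difference was -3.21 without D1 Control library 3 (edgeR adjusted p = 0.0168). Col6a1 had 34.8, 35.1, 25.5, 33.3 and 28.98 CPM in D1 Control against 38.5, 36.5, 39.3, 21.6 and 22.1 CPM in D2 Control and passed in no state. No type VI chain and none of the 8 fibril-associated collagens tested passed in any state. In Control Col9a2 averaged 10.2 ± 2.61 and 10.5 ± 2.43 CPM in D1 and D2 (SD, n = 5), Col9a3 3.88 ± 1.06 and 5.34 ± 2.57, and Col16a1 1.79 ± 0.375 and 2.42 ± 0.532.

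Promoter windows of 250 bases were available for 55 of the 76 genes, 16 of them among the 22 called. The GC box occurred in 28 of the 55 windows (50.9%), against 32.9% of all 27025 promoters of the same length. CCAAT occurred in 14 (25.5% against 34.5%) and TATAAA in 5 (9.09% against 13.0%).

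When D2 Susceptible libraries 1 and 2 were left out together, 13 genes were called in Susceptible, 10 of which were among the 16, and 10.4% of all genes tested were called. The lost genes were Col17a1, Col1a1, Col27a1, Col5a2, Itga3 and Lamb3, and Col3a1, Lamc1 and Lamc3 passed instead. With D1 Susceptible library 1 and D2 Resilient library 5 also left out, 20 were called in Susceptible, 12 of them among the 16, and 23 in Resilient, where all genes were called at 10.6% and 12.5%.

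Other genes of matrix biology were examined as a list of 70, of which 69 were tested. In Control 3 were higher and 12 lower in D1 (median log2 -0.08), in Resilient 2 and 17 (median -0.20), and in Susceptible 7 and 19 (median -0.14). Of all genes tested, 3.51% were called higher and 4.80% lower in Control, 2.75% and 3.90% in Resilient, and 10.5% and 13.4% in Susceptible. By sublist in Control, 1 was higher and 4 lower of 16 other matrix proteins, 3 lower of 16 collagen-processing genes, 2 lower of 10 matrix-breakdown genes, 2 lower of 9 other receptors, and 2 higher and 1 lower of 18 integrin adaptors and kinases. The 5 smallest adjusted p-values in Control all belonged to genes lower in D1. Levels are means ± SD over 5 libraries in CPM.

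Bcam, a receptor for laminin alpha 5, had 2.52 ± 0.26 CPM in D1 against 11.4 ± 4.27 CPM in D2 (log2 -2.18, edgeR adjusted p = 1.87e-06). Fn1, fibronectin, had 2.00 ± 0.58 and 10.5 ± 2.85 CPM (edgeR adjusted p = 9.50e-06). Nid1, which links laminin to type IV collagen, had 0.79 ± 0.52 and 5.02 ± 1.54 CPM (log2 -2.65, edgeR adjusted p = 5.50e-05). Sparc, a collagen-binding protein, had 16.3 ± 13.1 and 73.5 ± 16.9 CPM (log2 -2.17, edgeR adjusted p = 9.70e-05), and the collagen chaperone gene Serpinh1 1.28 ± 0.92 and 8.30 ± 2.34 CPM (log2 -2.69, edgeR adjusted p = 9.82e-05). Itgav, the alpha subunit that Itgb5 and Itgb8 pair with, had 79.2 ± 15.6 CPM in D1 against 71.1 ± 7.12 CPM in D2 and did not pass (edgeR adjusted p = 0.606).

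The second comparison asked how stress state related to these genes within each class. No gene of the 72 passed in any of the 6 comparisons of states within a class, nor in the 3 tests of whether a state difference differed between the classes (edgeR quasi-likelihood test). Among all genes the called share was 0% in each of these 9 comparisons except D2 Susceptible against Control (0.00516%) and against Resilient (0.0516%). At an unadjusted p under 0.05, the 72 genes counted 4 in D1 Resilient against Control (2.60% of all genes), 0 in D1 Susceptible against Control (2.40%) and 4 in D1 Susceptible against Resilient (3.49%). In D2 they counted 2 in Resilient against Control (4.20%), 6 in Susceptible against Control (15.7%) and 10 in Susceptible against Resilient (19.1%). For the differences between classes the counts were 3 for Resilient against Control (4.99%), 1 for Susceptible against Control (7.79%) and 8 for Susceptible against Resilient (12.4%). DESeq2 called 0 of these genes in 8 of the 9 comparisons and 2 in D2 Susceptible against Resilient, Col17a1 and Col19a1.

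In D1, the smallest p belonged to Lamc1 between Susceptible and Resilient. It had 21.7, 16.2, 16.2, 18.3 and 19.5 CPM in Susceptible and 14.2, 14.5, 13.7, 13.2 and 12.7 CPM in Resilient. Every Susceptible library lay above every Resilient library, as for 1.12% of all genes, but the difference did not pass (log2 0.42, SE 0.144, edgeR adjusted p = 0.856). It was the only gene of the 72 whose libraries did not overlap between these groups. Itga1 had 0.495 to 4.16 CPM in Susceptible and 0.356 to 0.776 CPM in Resilient (log2 1.09, edgeR adjusted p = 1.00), the upper value being library 1. Without that library the Itga1 difference was 0.23 on the log2 scale. The smallest p-values in the other direction were those of Col9a2 (log2 -0.35, edgeR adjusted p = 1.00) and Col24a1 (log2 -1.52, edgeR adjusted p = 1.00). The Col24a1 difference was -3.11 without D1 Susceptible library 1 and -0.90 without D1 Resilient library 5. Beside this, the log2 difference between D1 Susceptible and Resilient was positive for 14 of 14 endothelial markers (8 with an unadjusted p under 0.05) and 10 of 11 mural markers (6). Of all genes, 3.49% had such a p, and their median log2 difference was -0.00662. Vessels were not alone in this. Mean sums were also higher in Susceptible for astrocyte (491 against 352 CPM), oligodendrocyte (565 against 492), microglia (38.0 against 30.6), ependymal (24.9 against 13.8), fibroblast and D2 neuron markers. They were lower for epidermal, interneuron and D1 neuron markers. The highest endothelial sum, 78.3 CPM, was that of Susceptible library 1. The part of these cells in the differences was not tested.

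Against Control, D1 Susceptible libraries had the smallest p for Lamc1 (log2 0.29, edgeR adjusted p = 1.00) and Col4a2 (log2 0.39, edgeR adjusted p = 1.00) among positive differences. Among negative ones it was Col11a1 (log2 -0.50, edgeR adjusted p = 1.00) and Itgb4 (log2 -0.78, edgeR adjusted p = 1.00), the beta subunit of hemidesmosomes. For D1 Resilient against Control they were Lamb3 (log2 0.31, edgeR adjusted p = 1.00), Col7a1 (log2 1.36, edgeR adjusted p = 1.00) and Col1a1 (log2 -1.32, edgeR adjusted p = 1.00). Col13a1 had 13 counts over the D1 Control libraries and 0 over the D1 Resilient ones, at least 4.21-fold lower against a floor of 3 counts over the group (edgeR adjusted p = 1.00). The comparisons with Control share the same Control libraries, so their values are not independent.

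In D2, the genes nearest the threshold were Col17a1 and Col19a1. Col17a1 had 0.470, 0.760, 1.02, 0.274 and 0.989 CPM in Control, 0.436, 0.448, 0.338, 0.235 and 0.181 CPM in Resilient and 4.21, 2.14, 0.456, 1.53 and 0.676 CPM in Susceptible. Every Susceptible library lay above every Resilient library, as for 1.50% of all genes, and Col17a1 was the only one of the 72 whose libraries did not overlap between these groups. The gap was narrow: Susceptible library 3 at 0.456 CPM and Resilient library 2 at 0.448 CPM both had 26 raw counts. In the other 4 comparisons of states within a class 0 of the 72 genes had groups that did not overlap: the share of all genes was 0.888% for D1 Susceptible and 1.54% for D1 Resilient against Control, and 1.31% for each of the D2 comparisons with Control. The log2 difference Susceptible minus Resilient was 2.45 (SE 0.574, edgeR adjusted p = 0.0576). Against Control it was 1.35 (edgeR adjusted p = 0.238).

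Col19a1, a fibril-associated collagen made by interneurons and involved in synapse formation, had 0.871, 0.543, 0.509, 2.23 and 0.946 CPM in D2 Control, 0.581, 0.654, 0.974, 0.515 and 0.402 CPM in Resilient and 3.91, 4.15, 0.842, 1.36 and 0.647 CPM in Susceptible. The groups overlapped, and the 2 highest values were those of Susceptible libraries 1 and 2 (Susceptible minus Resilient log2 1.80, SE 0.474, edgeR adjusted p = 0.0668).

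Both differences were smaller, in the same direction, in a fit without 2 libraries, which also had fewer libraries to test with. With D2 Susceptible libraries 1 and 2 left out, the log2 difference of Col17a1 between Susceptible and Resilient was 1.43 (edgeR adjusted p = 0.777) and that of Col19a1 0.60 (adjusted p = 0.997). Left out alone, library 1 gave 1.86 for Col17a1 (edgeR adjusted p = 0.199) and library 2 gave 2.38 (edgeR adjusted p = 0.158). Without library 3, 4 or 5 alone, Col17a1 passed (edgeR adjusted p = 0.00943, 0.0366 and 0.0125). The cause of these changes was not tested. DESeq2 with all libraries gave adjusted p-values of 0.00113 for Col17a1 and 0.00768 for Col19a1.

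Libraries 1 and 2 were also those with epidermal genes. The keratin gene Krt10 had 167 and 284 CPM in them and Krt1 129.9 and 189 CPM. Krt5, Krt14, Krt15 and Krtdap were at 0 in D2 Susceptible libraries 3 to 5, while Krt5 had 7.52 and 21.05 CPM and Krt14 7.62 and 20.7 CPM in libraries 1 and 2. Summed over the list, libraries 1 to 5 had 377, 589, 48.3, 53.8 and 44.6 CPM. The part of epidermal RNA in the Col17a1 difference was not tested.

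**Figure D5:**
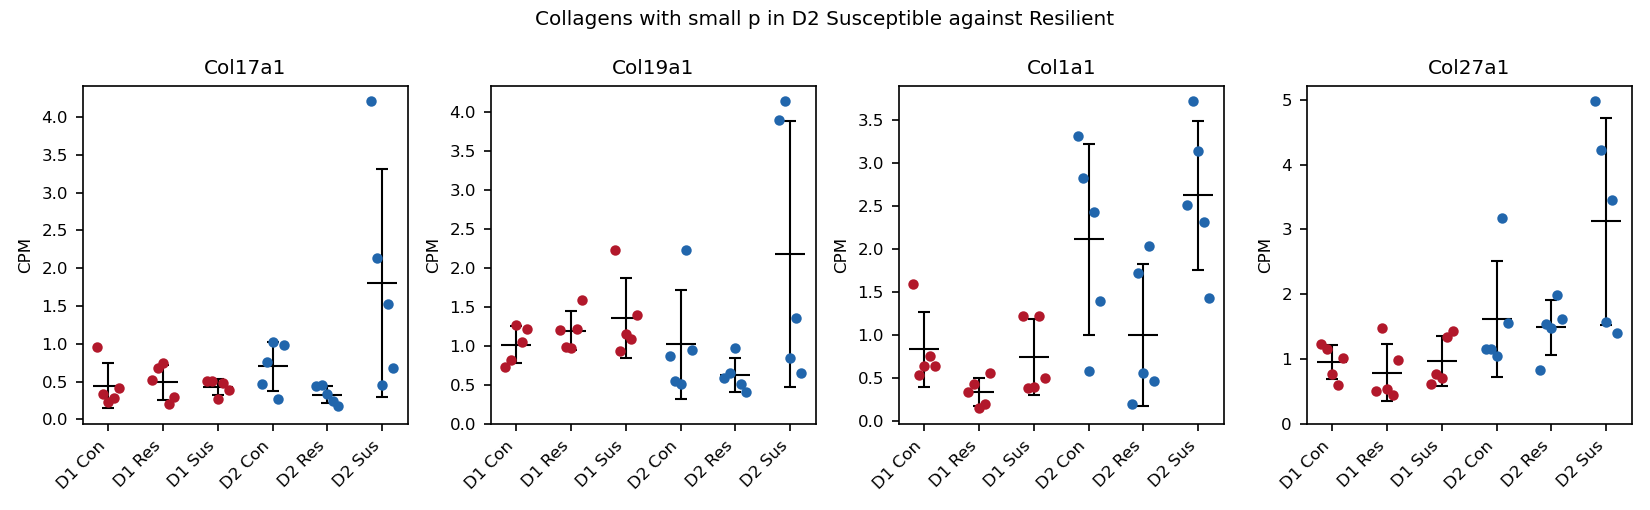
CPM of Col17a1, Col19a1, Col1a1 and Col27a1 in each library of the 6 groups (points, library 1 to 5 from left to right), with the mean and SD of 5 libraries, on linear axes. The highest Col17a1 and Col19a1 values are those of D2 Susceptible libraries 1 and 2, at 4.21 and 2.14 CPM and at 3.91 and 4.15 CPM.

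Among negative differences of the D2 Susceptible libraries, Lama2 had 0.752, 0.797, 2.26, 2.21 and 2.41 CPM against 2.74, 4.09, 2.20, 2.81 and 4.69 CPM in Control and 4.31, 4.13, 4.04, 3.57 and 1.77 CPM in Resilient. Here too libraries 1 and 2 were the lowest, and the groups overlapped (Susceptible minus Resilient log2 -1.08, SE 0.383, edgeR adjusted p = 0.124; minus Control log2 -0.97, edgeR adjusted p = 0.224). With both libraries left out, the difference from Resilient was -0.64. Itgb6, an epithelial subunit that pairs with alpha v, had 3 counts over the D2 Susceptible libraries, 35 over D2 Control and 42 over D2 Resilient. The ratios, scaled for library size, were 0.0857 (95% interval 0.0169 to 0.272) and 0.0704 (0.0140 to 0.220), with exact intervals that cover counting error only, and neither difference passed (edgeR adjusted p = 0.255 and 0.165).

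For D2 Resilient against Control, Lamb1 had 66.3, 51.5, 53.3, 54.2 and 59.2 CPM against 50.2, 48.0, 51.8, 40.3 and 47.4 CPM, overlapping between 51.5 and 51.8 CPM (log2 0.26, SE 0.105, edgeR adjusted p = 1.00). The other smallest p-values were those of Col6a1 (log2 0.34, edgeR adjusted p = 1.00), Col1a1 (log2 -1.08, edgeR adjusted p = 1.00) and Col6a6, at 0 to 0.358 CPM in Control and 0 to 0.0441 CPM in Resilient (edgeR adjusted p = 1.00).

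No gene passed the test of whether a state difference differed between the classes, and the smallest p-values were as follows. For Susceptible against Resilient, the D1 change minus the D2 change was -2.64 for Col17a1 (SE 0.795, edgeR adjusted p = 0.239), -1.64 for Col19a1 (edgeR adjusted p = 0.316), 1.65 for Lama2 (edgeR adjusted p = 0.266) and 0.80 for Col4a1 (edgeR adjusted p = 0.330). For Susceptible against Control it was 1.12 for Lama2 (edgeR adjusted p = 0.640), -1.42 for Col17a1 (edgeR adjusted p = 0.658) and -0.91 for Col27a1 (edgeR adjusted p = 0.686). Col4a4, a network chain under 1 CPM, had 3.82 (edgeR adjusted p = 0.645). For Resilient against Control it was 0.49 for Lamb3 (edgeR adjusted p = 0.929) and -0.27 for Lamb1 (edgeR adjusted p = 1.00). Col6a6 and Col13a1 complete that set at 4.30 (edgeR adjusted p = 0.944) and -3.74 (edgeR adjusted p = 1.00), both from counts near 0.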

How the data were processed

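RNA on HA-tagged ribosomes was sequenced in 30 libraries (6 groups of 5, taken from the sample titles). The authors deposited raw counts per gene, per library and as a series table. The 30 columns of that table were identical to the library files, and 0 were without a sample. HISAT2, HTSeq, GRCm38 and mm10 are named per the submitters' processing notes, whereas versions, the strand setting and the annotation release are in none of the sources used here. Read counts assigned to no gene (10.1 to 53.3% of a library) were left out. Gene symbols came from GENCODE M21.

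The deposited counts were tested with edgeR 4.0.16 (R 4.3.3, limma 3.58.1): filterByExpr (minimum count 10, minimum total 15) kept 19368 genes and set aside 35967, TMM scaling was followed by 1 quasi-likelihood model of the 6 groups (24 residual degrees of freedom, common dispersion 0.172, a biological coefficient of variation of 41.4%), and 12 contrasts were called at a Benjamini-Hochberg adjusted p under 0.05 over all genes tested. CPM values are on TMM-scaled library sizes. The floor of 3 counts corresponded to 0.0430 to 0.304 CPM. The scripts were tested on simulated data. The p-values measure the spread between these pools.

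The genes and lists were chosen with earlier results of these data known. Named genes were every called gene (except 1 that is not reported here), the 3 highest per kb in each role, the 2 smallest p-values in each direction where none was called, and up to 5 of the matrix list in Control. Beside the main settings, DESeq2 1.42.0, voom with quality weights, DESeq2 size factors, no low-count filter, only the groups compared, a replicate block, and fits without 1, 2 or 4 libraries were run. Promoters came from RefSeq (GRCm38.p6). Tables and figures were made with Python 3.11.15, pandas 2.3.3 and matplotlib 3.10.9.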

Additional observations from a re-analysis of the deposited data

Results flagged for a closer look

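In 14 of 132 groups of 5 libraries checked for the 22 called genes, and in 11 of 66 checked for marker lists, 1 library stood farther from its nearest neighbour than Dixon's 95% limit allows. Chance alone gives about 5% of groups. The groups within a gene are separate libraries, but the genes share them.

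D2 Resilient library 5 had 87.7 CPM of Col25a1 (the other 4 had 50.9 to 56.6), 1.77 CPM of Lama2 (3.57 to 4.31) and 2.96 CPM of Itga1 (7.66 to 9.40). Its marker sums were 122 CPM for endothelial genes (288 to 354), 335 CPM for astrocyte genes (675 to 766) and 1640 CPM for D1 neuron genes (314 to 414). In this library all 6 values lay on the side of the D1 libraries.

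D1 Susceptible library 1 had 2.44 CPM of Lama2 (the other 4 had 0.787 to 1.01), 1.93 CPM of Lamc3 (0 to 0.392), 4.16 CPM of Itga1 (0.495 to 0.887) and 1.42 CPM of Col5a2 (0.0734 to 0.304). Its raw counts of these genes were 24, 19, 41 and 14. In the other 4 libraries they were 44 to 53, 0 to 19, 27 to 43 and 4 to 16. Raw counts of the more abundant Itgb1 and Lamb1 were 303 and 568 in library 1, against 1309 to 1746 and 2650 to 3006 in the other 4. On the CPM scale 3 counts were 0.304 CPM in library 1 and 0.0537 to 0.0619 CPM in the other 4. Why the 4 genes were high in library 1 was not tested. In the same library 53.3% of read counts were assigned to no gene.

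D1 Control library 1 had 1.59 CPM of Col1a1 (0.528 to 0.757 in the others) and 0.960 CPM of Col17a1 (0.226 to 0.413). Its marker sums were 67.9 CPM for endothelial genes, 40.2 CPM for mural genes, 835 CPM for astrocyte genes, 1055 CPM for oligodendrocyte genes and 93.9 CPM for microglia genes, each the highest of its group.

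The remaining values concerned single libraries. Lama2 stood at 0.369 CPM in D1 Resilient library 5. Col13a1 stood at 0.143 CPM in D1 Susceptible library 3, the other 4 being at 0, and at 2.24 CPM in D2 Susceptible library 4. Col27a1 had 3.18 CPM in D2 Control library 4 and Itga3 3.91 CPM in D2 Susceptible library 2. The ependymal and choroid plexus sums were 52.1 CPM in D1 Susceptible library 4 and 47.9 CPM in D2 Susceptible library 4. The epidermal sum of D2 Control library 5, 40.01 CPM, lay below the 53.9 to 56.7 CPM of its group.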

How the results depend on the processing

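All 41 calls of a gene in a class comparison kept their direction under every alternative in which the gene was tested, and 25 of them were called under every one. Of the 36 named results not called, 34 kept their direction wherever tested and 2 passed under some alternative, Col17a1 and Col19a1 in D2 Susceptible against Resilient. Called genes between D1 and D2 numbered 12, 13 and 16 in Control, Resilient and Susceptible, against 8.30%, 6.65% and 23.9% of all genes tested. The share of all genes called moved with the setting too, and is given in brackets in the same order. DESeq2 called 14, 17 and 19 (11.4%, 7.56% and 25.7%). DESeq2 size factors within edgeR gave 12, 14 and 15 (8.29%, 6.63% and 24.5%), and the fit without a low-count filter 11, 13 and 11 (4.23%, 3.63% and 13.2%). Voom with quality weights called 31, 23 and 25 (28.4%, 17.6% and 17.0%). With only the groups compared in the fit, 23, 15 and 6 were called (15.6%, 12.7% and 5.48%). The Susceptible calls lost there were Col11a2, Col17a1, Col1a1, Col23a1, Col27a1, Col4a1, Col5a2, Itga3 and Lamb3. Col13a1 had no test in this fit in Resilient or in Susceptible. Without 4 libraries together, 23 were called in Resilient (12.5%). Leaving out 1 library at a time gave 10 to 12 (4.95 to 9.07%), 10 to 14 (4.86 to 7.34%) and 11 to 17 (17.7 to 31.4%). The cause of these moves was not tested. Fits with fewer samples moved the counts in both directions.

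In D2 Susceptible against Resilient, where none was called, DESeq2 called 2 and leaving out 1 library gave 0 to 2, the 2 arising without Susceptible library 3, 4 or 5. Col19a1 between D2 Susceptible and Control reversed, to a log2 difference of -0.11 without D2 Susceptible libraries 1 and 2 and -0.10 without 4 libraries. Col17a1 reversed to 0.16 under voom in the D1 change minus D2 change for Susceptible against Control.

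Replicate numbers are shared by the groups, but the labels do not say that a number marks a common batch. Of 75 same-numbered pairs of libraries 0 had deviations from the group mean that correlated above 0.1 (mean r -0.00399), and 2 of 30 libraries matched their own number best. With the replicate block the calls numbered 11, 13 and 11 (7.73%, 6.35% and 21.5% of all genes), and 0 in each stress comparison.

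Depth limits the 35 genes that averaged under 1 CPM, for which 3 counts, 0.0430 to 0.304 CPM, are a sizeable share of the level.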
